A study of Mus musculus with 3 samples.

Results

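Within each tubercidin library, the cells that yielded the least RNA were set against the cells that yielded the most, to ask whether the RNA-poor cells carried a stronger form of the treated expression profile. Cells were ranked within their own library by their total number of unique molecular identifiers (UMIs, each marking 1 captured RNA molecule). The lowest quartile is called RNA-poor and the highest quartile RNA-rich. The cells were thus chosen by a measured value, their total UMIs, and the difference in UMIs between the quartiles is a description. The quartiles held 591 cells each after 3 h of tubercidin, 731 each after 6 h and 507 each in the control, which came to 3658 of 7322 called cells. The other 3664 cells, the 2 middle quartiles of each library, were used to define the treated profile, so that no cell of the RNA-poor or RNA-rich quartiles helped to define it.

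The cells were E14 mESCs, a mouse embryonic stem cell line of 129/Ola background, cultured with serum and leukaemia inhibitory factor (LIF). All 3 groups were this line under this medium: tub_3h received 10 uM tubercidin for 3 h, tub_6h received 10 uM tubercidin for 6 h, and the control received DMSO for 6 h, so that the 3 h cells have no control of their own length. Each of the 3 conditions is 1 library from 10x Genomics Chromium 3' barcoding, and the libraries held 35374540 UMIs (3 h), 29353325 UMIs (6 h) and 115656427 UMIs (control). No difference below could be tested against replicates, and no p-value is given. Every interval printed is an exact 95% interval that covers counting error only. The cells of a library share 1 culture and are not replicates of a condition. Fewer UMIs in a cell can come from less RNA or from weaker capture, and these cannot be told apart here. Each pair of libraries shared 1 cell barcode.

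Tubercidin is an adenosine analogue that cells phosphorylate and can build into RNA in place of adenosine, and it is used as an inhibitor of RNA metabolism. The amount of RNA in a dividing cell grows through the cell cycle, so that cells in S phase, when DNA is copied, usually hold less RNA than cells in G2 and mitosis. In droplet data a low UMI total together with a high share of mitochondrially encoded RNA is the customary mark of a cell that has lost cytoplasmic RNA, and the cytoplasm is where the abundant ribosomal protein mRNAs lie.

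The quartiles differed more in UMIs after tubercidin than in the control. The median RNA-poor cell held 34796 UMIs and the median RNA-rich cell 70049 in the control, a ratio of 2.01. At 3 h the medians were 6579 and 18750 UMIs, a ratio of 2.85, and at 6 h they were 4559 and 12289 UMIs, a ratio of 2.70. The lowest quartile ended at 9088 UMIs and the next began at 9090 at 3 h, and the corresponding values were 6148 and 6149 at 6 h and 40442 and 40481 in the control. Detected genes per cell had medians of 2416 and 4366 in RNA-poor and RNA-rich cells at 3 h, 1935 and 3720 at 6 h, and 6224 and 8206 in the control. After each cell was thinned to 2000 UMIs the 3 h medians became 1047 and 1026, the 6 h medians 1086 and 1116, and those of the control 1140 and 1165.

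The labelled cell type held in every quartile. Summed over 11 stem cell markers, among them Pou5f1, Sox2 and Nanog, RNA-poor cells had 5195 CPM (the UMIs of a gene scaled to a common total) at 3 h and RNA-rich cells 5726, with 4158 and 4258 CPM at 6 h and 4639 and 4806 CPM in the control. All 11 markers were detected in each library. Markers of other cells stayed low in all quartiles: 0.791 to 2.89 CPM over 7 fibroblast genes (2 at 0 in each library), 1.22 to 4.56 CPM over 7 trophoblast genes (1 at 0 in the control and at 3 h, 2 at 6 h), and 35.4 to 72.7 CPM over 9 primitive-endoderm genes (1 at 0 at 6 h). Over 10 2-cell-like genes the sum ran from 0 to 3.39 CPM, and 8, 10 and 4 of them were at 0 in the control, the 3 h and the 6 h library. The 3.39 CPM were those of the RNA-rich cells at 6 h, and the other 6 h quartiles were at 0.

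Cells with much mitochondrial RNA lay at the bottom of the UMI ranking in every library, and were most frequent at 3 h. Of the 591 RNA-poor cells at 3 h, 124 (21.0%, Clopper-Pearson interval 17.8% to 24.5%) had over 10% mitochondrial UMIs, counted over the genes whose symbols start with mt-. The corresponding number was 50 of 731 (6.84%, 5.12% to 8.92%) at 6 h and 26 of 507 (5.13%, 3.38% to 7.42%) in the control. No cell of the other quartiles passed 10%. The 3 h lowest quartile held 245 cells over 5%, against 132 at 6 h and 64 in the control.

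The 3 h lowest quartile was a mixture, and its low ribosomal protein share and high Malat1 lay in the cells over 5% mitochondrial UMIs. Its 124 cells over 10% mitochondrial UMIs had a median of 3816.5 UMIs, gave 13.6% of the quartile's UMIs, and devoted 9.02% of their UMIs to cytosolic ribosomal protein mRNAs. The 121 cells between 5% and 10% devoted 17.7%, while the 346 cells at or under 5% devoted 30.3%, close to the 30.2% of the middle quartiles. The nuclear RNA Malat1 stood at 7389 CPM, 5726 CPM and 3111 CPM in these 3 groups and at 3182 CPM in the middle quartiles. Stem cell markers summed to 3760, 4633 and 5622 CPM in the same 3 groups and to 5593 CPM in the middle quartiles. The few such cells of the other libraries had a like make-up: the 26 control cells over 10% had 7.93% ribosomal protein UMIs and 10627 CPM of Malat1, and the 50 cells at 6 h had 7.59% and 6103 CPM. Free RNA in the droplets, measured in barcodes of rank 5001 to 15000, had 1.33% mitochondrial and 35.5% ribosomal protein UMIs at 3 h and 3.57% and 17.2% in the control. Transcripts that overlap ribosomal RNA were high in both: at 3 h they stood at 35355 CPM in free RNA and 14557 CPM in the cells over 10%, against 3503 CPM in the middle quartiles. The part of free RNA in these cells was not tested. A median of 210 free UMIs per barcode came to 3.19% of the median RNA-poor cell at 3 h, against 3.03% at 6 h and 0.986% in the control. The split of the lowest quartile by mitochondrial share was chosen after seeing the data.

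**Figure D1:**
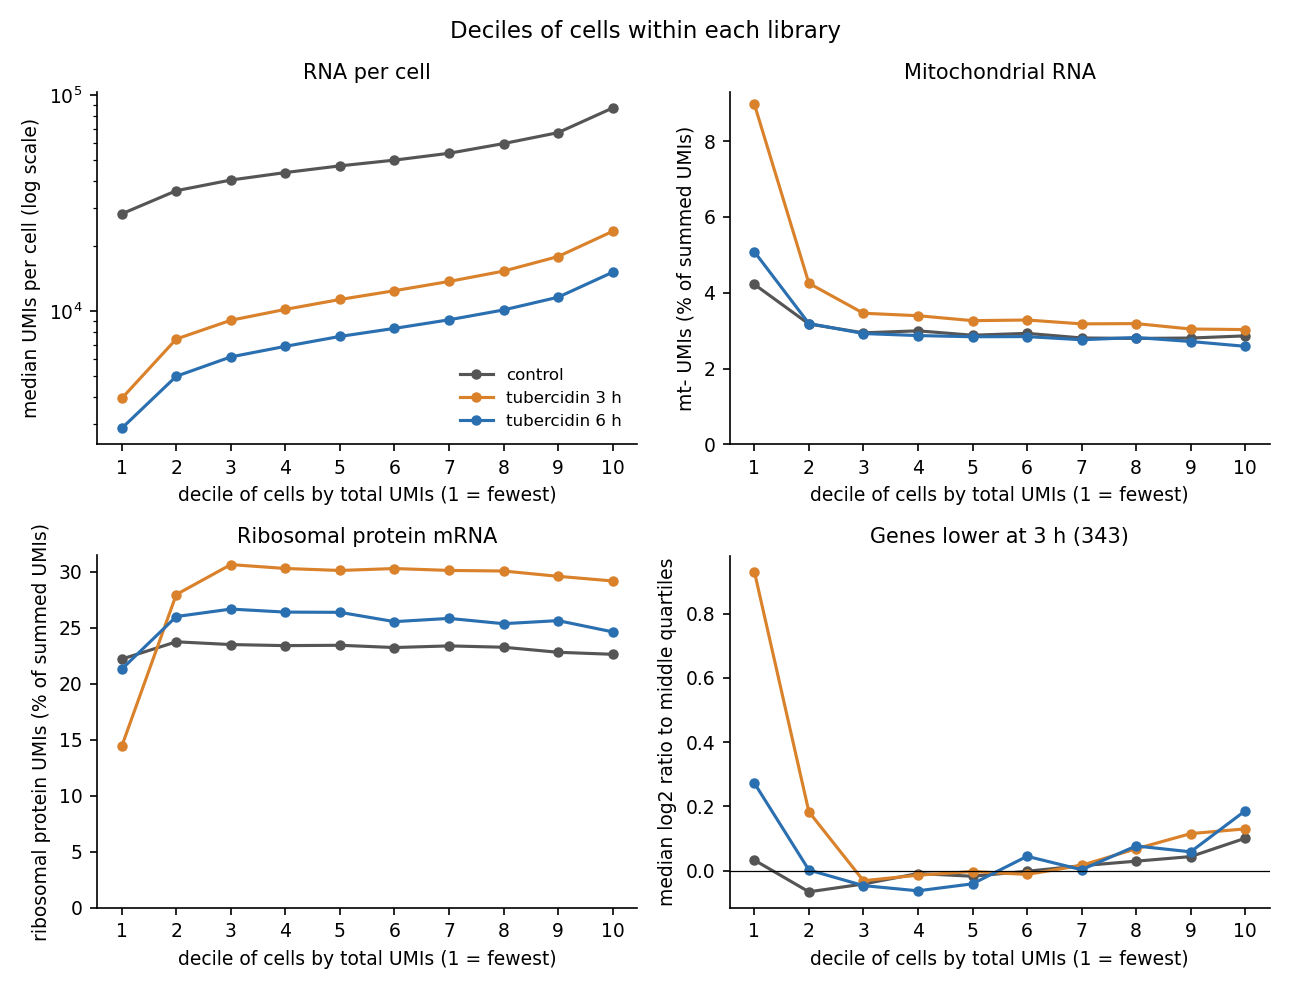
Cells of each library in deciles by total UMIs (x axis, 1 = fewest), with median UMIs per cell on a log scale, mitochondrial and ribosomal protein UMIs as percent of summed UMIs, and the median log2 ratio to the library's middle quartiles of the 343 genes lower at 3 h. Points are 1 library each; the first decile at 3 h stands apart in the last 3 panels, with 8.98% mitochondrial UMIs, 14.4% ribosomal protein UMIs and a ratio of 0.93.

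In deciles, the departure at 3 h was largest in the first decile. The lowest 237 cells had a median of 3954 UMIs, and 184 of them had over 5% mitochondrial UMIs. Ribosomal protein mRNAs made up 14.4% of their UMIs, then 28.0% in the second decile, and between 29.2% and 30.7% in the other 8. At 6 h the lowest decile had 21.3%, against 24.6% to 26.7% in the other 9, and in the control 22.2% against 22.6% to 23.8%. The deciles were also chosen after seeing the data.

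The 5946 genes that averaged 20 CPM or more across the 6 compared quartiles were compared by size, and a gene was called where the log2 ratio of CPM + 1, RNA-poor to RNA-rich, reached 1.5-fold. At 3 h 434 genes (7.3%) were higher in RNA-poor cells and 17 (0.286%) lower. At 6 h 19 genes (0.32%) were higher and 13 (0.219%) lower. In the control 11 genes (0.185%) were higher and 49 (0.824%) lower. All of these ratios had a counting interval off 0, and at 2-fold the counts fell to 5 higher and 0 lower at 3 h, 0 and 0 at 6 h, and 0 and 3 in the control. The median over all genes was 0.16 at 3 h, -0.01 at 6 h and -0.02 in the control, so that at 3 h most genes were slightly higher in CPM while ribosomal protein mRNAs were lower. Median-of-ratios factors in place of CPM moved the 3 h median by -0.21, to -0.04, and turned the 3 h split from 434 higher and 17 lower to 69 higher and 164 lower. They left 18 and 13 genes at 6 h and 12 and 40 in the control. The direction of a 3 h count is therefore relative to the total.

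Most of the 3 h calls were absent once cells with over 5% mitochondrial UMIs were left out and the quartiles redrawn. Then 12 genes (0.202%) were higher in RNA-poor cells at 3 h and 64 (1.08%) lower, 9 (0.151%) higher and 173 (2.91%) lower at 6 h, and 8 (0.135%) higher and 103 (1.73%) lower in the control. Of the 434 genes called higher at 3 h, 9 were still called, 112 had changed sign, and the median of the 434 was 0.12. The 9 were Cdc6, Chka, Depdc7, Numb, Phkg1, Scpep1os, Tapbpl, Tbc1d14 and Zfp367, named after their values were seen. At a limit of 10% the 3 h counts were 44 higher and 17 lower. In the control 47 of the 49 lower genes stayed called at 5%.

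Mitochondrially encoded mRNAs, which code for respiratory chain subunits, were higher in RNA-poor cells in all 3 libraries. The median ratio over 13 genes was 0.78 at 3 h, 0.44 at 6 h and 0.27 in the control, and all 13 were above 0 in each. The number called higher was 12 at 3 h, 2 at 6 h and 0 in the control, beside 7.3%, 0.32% and 0.185% of all genes. Median-of-ratios factors left 3 called at 3 h. mt-Atp8, which encodes a subunit of ATP synthase and lies at chrM:7766-7969 of GRCm38, stood at 289, 156, 138 and 133 CPM from the lowest to the highest quartile at 3 h, at 171, 126, 116 and 105 CPM at 6 h, and at 150, 121, 131 and 116 CPM in the control. Its ratio was 1.11 (1.00 to 1.23) at 3 h, 0.69 (0.55 to 0.85) at 6 h and 0.37 (0.30 to 0.44) in the control. The lowest quartile was the highest in each library, by most at 3 h. With cells over 5% left out, a limit set on these same genes, the list medians were 0.14, 0.10 and 0.08.

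Several lists of abundant mRNAs stood below 0 in CPM in the 3 h RNA-poor cells, and others stood near 0. The median of 77 cytosolic ribosomal protein genes was -0.24 at 3 h, -0.01 at 6 h and 0.03 in the control, with none called in any library. The range of the list at 3 h ran from Rpl31, at -0.35, to Rps26, at 0.05. The medians of 77 mitochondrial ribosomal protein genes, 77 nuclear-encoded respiratory chain genes, 17 glycolysis enzymes and 24 cytoskeletal genes were -0.18, -0.17, -0.15 and -0.16 at 3 h, against -0.02, 0.02, -0.05 and -0.02 at 6 h. Heat shock chaperones (11 genes), translation factors (59) and the chaperonin CCT (8) had 3 h medians of 0.01, -0.03 and -0.02. These were below the 0.16 of all genes. With median-of-ratios factors the 3 lists stood at -0.20, -0.25 and -0.23, beside -0.04 for all genes. Pfn1, the actin-binding protein profilin, was the lowest of the cytoskeletal list, at 193, 248, 254 and 327 CPM from the lowest to the highest quartile at 3 h. Its 3 h ratio was -0.76 (-0.88 to -0.65), and it stayed at -0.44 (-0.55 to -0.35) with cells over 5% mitochondrial UMIs left out. In the same cells the ribosomal protein median became 0.04 at 3 h and 0.10 at 6 h.

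**Figure D2:**
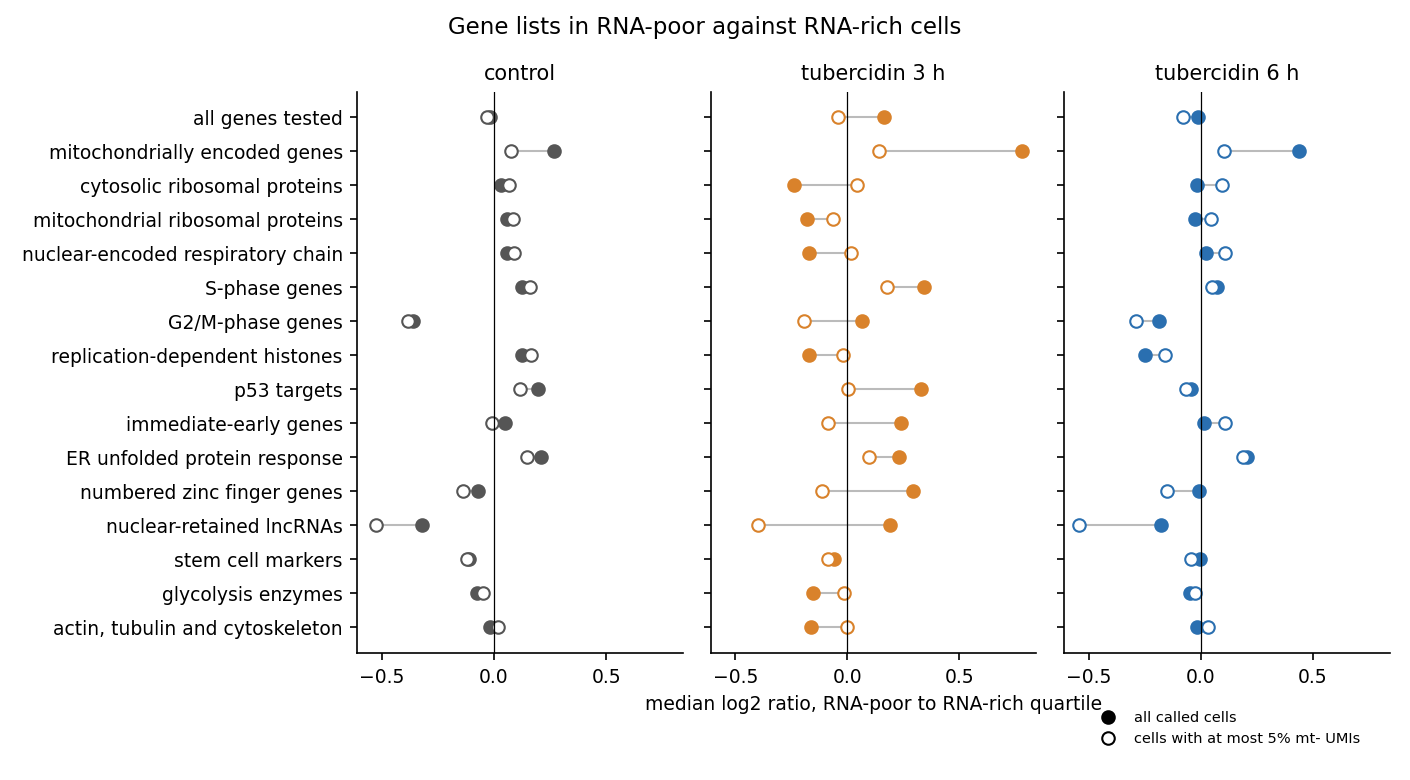
Median log2 ratio of CPM + 1, RNA-poor to RNA-rich quartile (x axis), of 15 gene lists and of all genes tested, in the control, 3 h and 6 h libraries, 1 library each. Filled circles are all called cells and open circles cells with at most 5% mitochondrial UMIs; the lines between them are longest at 3 h, where mitochondrially encoded genes go from 0.78 to 0.14 and nuclear-retained lncRNAs from 0.19 to -0.40.

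Genes of G2 and mitosis were the main group lower in RNA-poor control cells, and stood nearer to 0 in both treated libraries, a difference that was not tested. Among 51 genes of G2 and mitosis, 14 were called lower and 0 higher in the control RNA-poor cells, beside 0.824% and 0.185% of all genes. The median of the 51 was -0.36 in the control, with 48 below 0. The median was 0.07 at 3 h and -0.19 at 6 h, with 0 called in either. Median-of-ratios factors turned the 3 h median to -0.14, with 1 gene called lower. Top2a, the topoisomerase that untangles replicated chromosomes (chr11:98992943-99024189), stood at 483, 603, 791 and 980 CPM from the lowest to the highest control quartile. At 3 h it measured 437, 320, 386 and 499 CPM, and at 6 h 479, 451, 561 and 698 CPM. The control ratio was -1.02 (-1.06 to -0.99), the 3 h ratio -0.19 (-0.27 to -0.11) and the 6 h ratio -0.54 (-0.62 to -0.46). Kpna2 and Prc1 were outside the 51 genes and among the lowest of the control. Kpna2, a nuclear import receptor (chr11:106988629-106999541), climbed through the control quartiles from 27.8 to 37.1, 56.5 and 74.7 CPM, and was lowest in the second quartile in both treated libraries, at 23.4 and 20.3 CPM. Its ratio was -1.39 in the control and -0.21 at 3 h, and at 6 h, where it was called lower, -0.75. Prc1, which bundles microtubules of the mitotic midzone, had ratios of -0.38 at 3 h, -0.54 at 6 h and -1.29 in the control.

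The gap between the 3 h library and the control in these genes was smaller without the cells of high mitochondrial share. With at most 5% mitochondrial UMIs the G2 and mitosis median was -0.19 at 3 h, -0.29 at 6 h and -0.39 in the control. Of the 51 genes, 7, 11 and 18 were then called lower, beside 1.08%, 2.91% and 1.73% of all genes. The ratio of Top2a then became -0.84 (-0.93 to -0.75) at 3 h, -0.73 (-0.81 to -0.64) at 6 h and -1.04 (-1.08 to -1.01) in the control. Kpna2 became -0.84, -1.11 and -1.39. The lists of the cell cycle also moved with UMIs over single cells: the Spearman correlation of total UMIs with the G2 and mitosis share was 0.37 over 2031 control cells, -0.01 over 2365 cells at 3 h and 0.09 over 2926 at 6 h, and 0.40, 0.17 and 0.14 in cells at or under 5%. The median cell had 445, 83 and 64 UMIs of these genes, so that the counting noise of the share was larger after treatment.

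S-phase genes stood higher in RNA-poor cells in all 3 libraries. Of 39 genes, 36 were above 0 at 3 h, 27 at 6 h and 33 in the control, with medians of 0.34, 0.07 and 0.13, and 7, 0 and 2 were called higher. Of all genes 66.9% were above 0 at 3 h, 46.4% at 6 h and 45.8% in the control. The shares of all genes called higher were 7.3%, 0.32% and 0.185%. Median-of-ratios factors brought the 3 h median of the list to 0.14 and its calls to 3. Wdr76, a chromatin protein and the highest of the list at 3 h, stood at 63.6, 45.6, 43.8 and 34.0 CPM from the lowest to the highest quartile. Its ratio was 0.89 (0.67 to 1.14) at 3 h, 0.18 (-0.07 to 0.43) at 6 h and 0.30 (0.21 to 0.41) in the control. Cdc6, which loads the replicative helicase, was called in 2 libraries, with ratios of 0.61 (0.31 to 0.94) at 3 h and 0.60 (0.50 to 0.72) in the control, and 0.34 (0.01 to 0.69) at 6 h. Ung, which removes uracil from DNA, had the highest ratio of the control, 0.85, with 0.55 at 3 h and 0.40 at 6 h. At most 5% mitochondrial UMIs left the list at 0.18 at 3 h, 0.05 at 6 h and 0.16 in the control.

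Replication-dependent histone mRNAs, which are made in S phase and mostly lack a poly(A) tail, stood near the S-phase genes in the control but on the other side of 0 in both treated libraries. Of 16 genes, 1 was called higher and 3 lower at 3 h, 2 and 3 at 6 h, and 2 and 0 in the control. The shares of all genes called higher and lower were 7.3% and 0.286%, 0.32% and 0.219%, and 0.185% and 0.824%. The medians of the list were -0.17, -0.25 and 0.13. Hist1h3e stood at 17.9, 27.1, 43.2 and 34.7 CPM from the lowest to the highest quartile at 3 h, and its ratio was -0.92 (-1.36 to -0.58), against -0.63 (-1.0 to -0.31) at 6 h and -0.10 (-0.26 to 0.06) in the control. Hist1h1c, a linker histone, was lower only at 6 h by this rule, at -0.86 (-1.31 to -0.49), with 0.13 at 3 h and 0.01 in the control; the difference between libraries was not tested. Hist1h2bc was higher in RNA-poor cells in all 3 libraries, with ratios of 0.63, 0.68 and 0.85 at 3 h, at 6 h and in the control. Members of this family are nearly identical in sequence, so that the split of UMIs among them is uncertain.

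**Figure D3:**
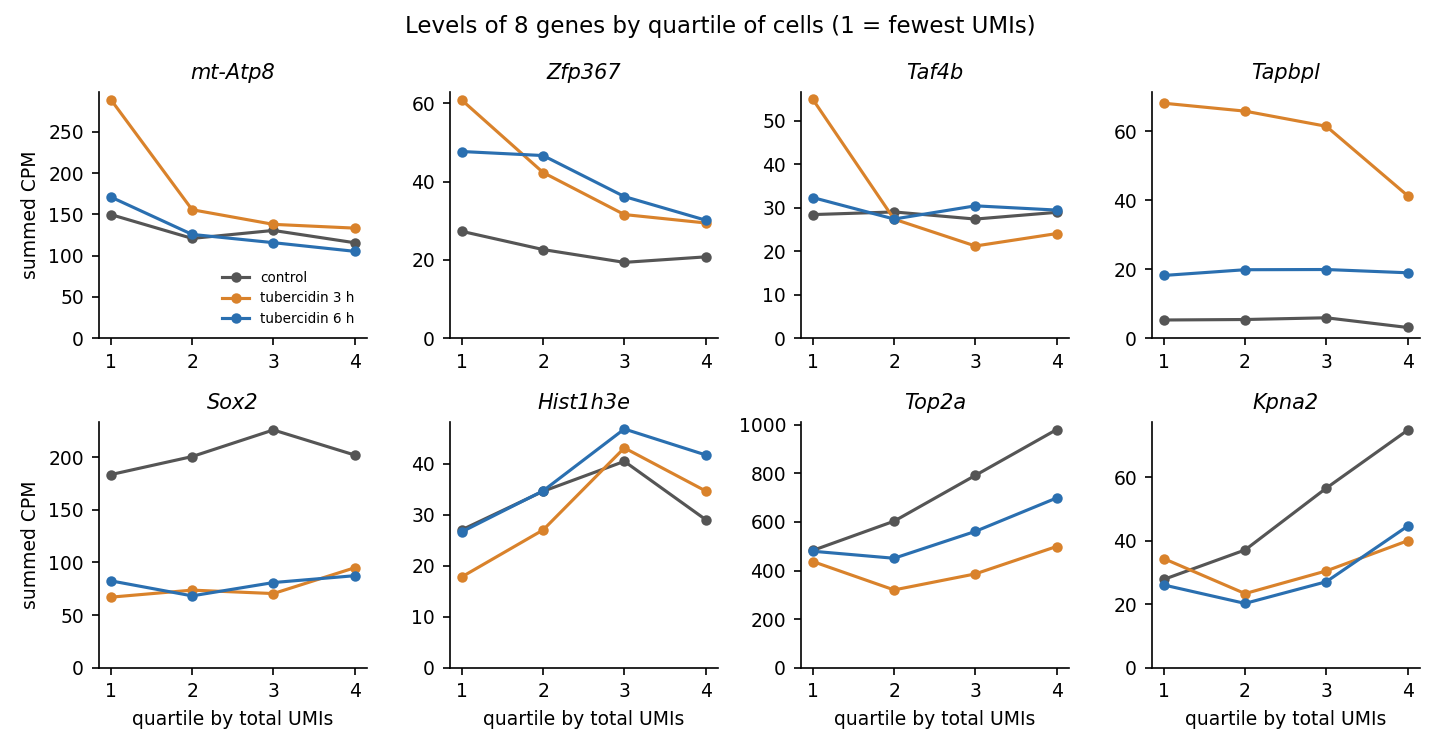
Summed CPM (y axis, from 0) of 8 genes in the 4 quartiles of cells by total UMIs (x axis, 1 = fewest) of the control, 3 h and 6 h libraries, 1 value per quartile and library. Top2a goes from 483 to 980 CPM through the control quartiles, while mt-Atp8 at 3 h is at 289 CPM in the first quartile and at most 156 CPM in the others.

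The genes with the highest ratios at 3 h were Taf4b at 1.16, mt-Atp8 at 1.11, Zfp367 at 1.02, Vcl at 1.00, Gopc at 0.99 and Camk1d at 0.97, leaving out predicted genes. Taf4b, a subunit of the general transcription factor TFIID, stood at 54.9, 27.4, 21.2 and 24.1 CPM from the lowest to the highest quartile at 3 h. It was flat at 6 h, at 32.3, 27.4, 30.4 and 29.5 CPM, and in the control, at 28.4, 29.0, 27.4 and 28.9 CPM. Its 3 h ratio of 1.16 (0.92 to 1.45) became 0.55 (0.27 to 0.86) at the 5% limit. Vcl, the adhesion protein vinculin, went from 1.00 to 0.47 at that limit, Gopc, a Golgi protein, from 0.99 to 0.31, and Camk1d, a calcium-dependent kinase, from 0.97 to 0.18. Subtracting free RNA at 2 times its measured amount took Camk1d to -0.08. Zfp367, a zinc finger transcription factor (chr13:64133018-64153202), held its place: it stood at 60.9, 42.4, 31.6 and 29.5 CPM at 3 h, at 47.7, 46.7, 36.2 and 30.2 CPM at 6 h and at 27.3, 22.7, 19.4 and 20.8 CPM in the control. Its ratio was 1.02 (0.80 to 1.29), 0.64 (0.37 to 0.95) and 0.38 (0.22 to 0.56), and 0.83, 0.61 and 0.32 at the 5% limit.

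The lowest ratios at 3 h belonged to Hist1h3e, Tmed1, Pdcd2, Rhox5, Pfn1 and Hist1h3c. Tmed1, a cargo receptor of the early secretory pathway, stood at 17.0, 25.8, 24.8 and 32.8 CPM from the lowest to the highest quartile and had a ratio of -0.91 (-1.35 to -0.56), against -0.02 at 6 h and 0.13 in the control. Pdcd2 had -0.86 (-1.29 to -0.51) at 3 h, -0.20 at 6 h and 0.06 in the control. Rhox5, a homeobox gene, was lower in RNA-poor cells at 3 h, at -0.82, and in the control, at -0.83, with -0.24 at 6 h. Sox2, a core pluripotency factor (chr3:34650405-34652461), was the lowest of the 11 stem cell markers at 3 h. It stood there at 67.1, 73.8, 70.5 and 95 CPM, a ratio of -0.50 (-0.71 to -0.30), which was -0.48 at the 5% limit and short of a call. The ratio of Sox2 was -0.08 at 6 h and -0.14 in the control. Pou5f1 had -0.25, -0.17 and -0.11 at 3 h, at 6 h and in the control.

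At 6 h the extremes were smaller. mt-Atp8, Hist1h2bc, Phykpl, Med20, Rbm4b and Zfp367 had the highest ratios, between 0.64 and 0.69. Med20, a subunit of the Mediator complex, stood at 29.5 CPM in the lowest quartile and at 17.2, 16.6 and 18.3 CPM in the others. Utp25, a factor of ribosome assembly (chr1:193091104-193130272), was lowest, at 15.4, 23.5, 25.7 and 30.1 CPM from the lowest to the highest quartile, a ratio of -0.92 (-1.43 to -0.53), against 0.01 at 3 h and -0.12 in the control. Hist1h1c, Kpna2, Dnah8 and Hs6st3 were among the next lowest, and Kpna2 was also among the 4 lowest genes of the control. Of the 19 genes higher at 6 h, 9 were also called higher at 3 h, which were 47.4% of the 6 h list and 2.07% of the 3 h list. The control shared 3 of these 19, and 6 of its 11 higher genes were called higher at 3 h. The shares of all genes called higher were 7.3% at 3 h and 0.185% in the control. Of the 13 lower at 6 h, 1 was called lower at 3 h and 3 were called lower in the control. The shares of all genes called lower were 0.286% and 0.824%.

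The treated profile was taken from the middle quartiles, as genes at least 2-fold different from the control middle quartiles. At 3 h it held 49 higher genes (0.824%) and 343 lower genes (5.77%), and at 6 h 107 higher (1.8%) and 232 lower (3.9%). Both times share the control cells. A stronger profile in RNA-poor cells would place its higher genes above 0 and its lower genes below 0 in the ratio of RNA-poor to RNA-rich cells, beyond all genes and beyond the control.

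The lower genes of the 3 h profile went the other way at 3 h. Their median ratio was 0.25, above the 0.16 of all genes, and 274 of 343 (79.9%) were above 0, against 66.9% of all genes. Of the 343, 31 were called higher in RNA-poor cells and 1 lower, a share called higher that is near the 7.3% of all genes, and with median-of-ratios factors 4 were called higher and 12 lower. The same 343 genes had medians of -0.09 in the control and -0.05 at 6 h. The 49 higher genes had a median of 0.16, equal to that of all genes, with 34 above 0, and 0.10 in the control, with 38 above 0. Of the 49, 12 (24.5%) were called higher in RNA-poor cells at 3 h and 0 lower, beside 7.3% and 0.286% of all genes. In the control 5 (10.2%) were called higher and 0 lower, beside 0.185% and 0.824% of all genes. Median-of-ratios factors left 4 higher and 0 lower at 3 h, and the 5% limit left 2 and 0. With median-of-ratios factors the 3 h medians were 0.05 for the lower and -0.04 for the higher genes, beside -0.04 for all genes. At the 5% limit the lower genes stood at -0.13 at 3 h, at -0.12 in the control and at -0.16 at 6 h, beside -0.04, -0.03 and -0.08 for all genes. In the 3 h library 253 of the 343 were then below 0 (73.8%), in the control 240.

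At 6 h the profile was nearly level across UMIs. Its 107 higher genes had a median of 0.01, with 54 above and 53 below 0, and its 232 lower genes -0.01, with 110 above and 122 below. The medians in the control were 0.07 and -0.02. At the 5% limit the 6 h values were -0.13 and -0.09, beside -0.08 for all genes.

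**Figure D4:**
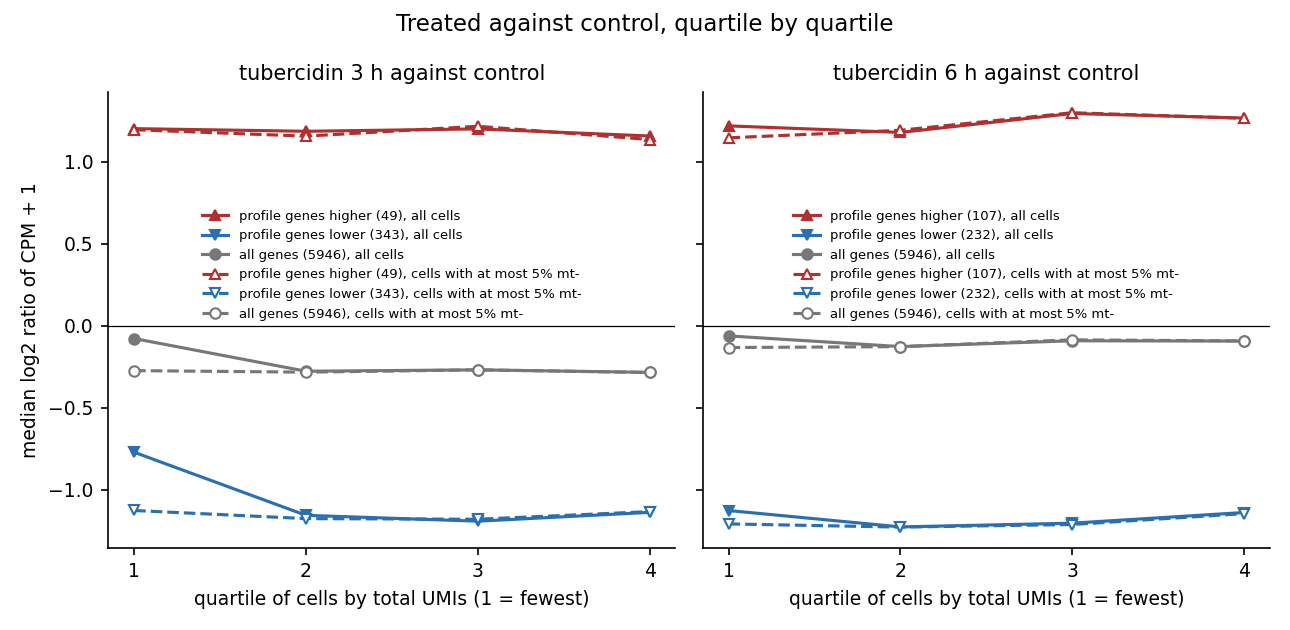
Median log2 ratio of CPM + 1, treated to control (y axis), in each quartile of cells by total UMIs (x axis, 1 = fewest), for the profile genes and for all genes, with 1 library per condition; filled symbols are all called cells and open symbols cells with at most 5% mitochondrial UMIs. The lower genes of 3 h are at -0.77 in the first quartile and between -1.14 and -1.19 in the others, and at -1.13 in the first quartile once cells over 5% are left out.

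Set against the control quartile by quartile, the lower genes of 3 h stood nearer to 0 in the lowest quartile than in the highest, and the higher genes were at a like level in both. The 343 lower genes of 3 h had a median treated to control ratio of -0.77 in the lowest quartile, -1.16 and -1.19 in the 2 that defined them, and -1.14 in the highest, that is 1.71-fold lower in the lowest quartile and 2.20-fold lower in the highest. All genes stood at -0.08 in the lowest and -0.29 in the highest quartile, and relative to them the lower genes were at -0.69 and -0.85. At the 5% limit the lowest and highest quartiles were both at -1.13. The 49 higher genes were at 1.20 in the lowest and 1.16 in the highest quartile, and relative to all genes at 1.28 and 1.44. At the 5% limit they were at 1.19 and 1.13, and relative to all genes at 1.47 and 1.42. At 6 h the lower genes were at -1.13 and -1.14 and the higher genes at 1.22 and 1.26. At the 5% limit the 6 h lower genes were at -1.21 and -1.15 and the higher genes at 1.14 and 1.26. All genes then stood at -0.13 and -0.09.

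Single profile genes showed the same range of behaviour. Mcmdc2, related to the replicative helicase subunits, was the highest gene of the profile at both times and had 1.28 to 1.72 CPM in the control quartiles. It stood at 46.8, 30.0, 29.9 and 25.8 CPM from the lowest to the highest quartile at 3 h and at 56.5, 39.6, 41.7 and 44.9 CPM at 6 h. Its ratio of RNA-poor to RNA-rich at 3 h was 0.83 (0.58 to 1.13), and 0.50 (0.23 to 0.81) at the 5% limit. The 6 h ratio was 0.33 (0.07 to 0.59), and -0.05 (-0.34 to 0.22) at that limit. Tapbpl, a peptide editor of class I antigen presentation (chr6:125223933-125231860), stood at 68.2, 65.9, 61.5 and 41.4 CPM at 3 h, and at 3.13 to 5.94 CPM in the control. Its 3 h ratio was 0.71 (0.50 to 0.94) and 0.95 (0.75 to 1.18) at the 5% limit, with -0.06 at 6 h and 0.61 (0.35 to 1.17) at the low control level. Cdk8, a kinase of the Mediator complex, was lower in RNA-poor cells at 6 h, at 406, 334, 422 and 550 CPM and a ratio of -0.44 (-0.53 to -0.35), although it was among the highest genes of the profile. Fgf17, a growth factor high at 3 h, had -0.31 (-0.53 to -0.10) there and 0.11 at the 5% limit. Klf2, a pluripotency factor of the lower genes, had 0.06 at 3 h and 0.10 at 6 h, and Fbxo5, an inhibitor of the anaphase-promoting complex, 0.00 and 0.09. Mdm2, the p53 target that restrains p53, had 0.58 at 3 h, 0.00 at the 5% limit, and -0.12 at 6 h.

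The other planned lists carried few calls. The 18 p53 targets tested had medians of 0.33 at 3 h, -0.04 at 6 h and 0.20 in the control, with 0 called, and 0.00, -0.07 and 0.11 at the 5% limit. The 11 immediate-early genes had 0.24, 0.02 and 0.05, and the 13 genes of the unfolded protein response 0.23, 0.21 and 0.21. Among 23 mRNA decay factors 2 were called higher at 3 h, Edc4 and Pan3, a share near the 7.3% of all genes, and 0 with median-of-ratios factors. Edc4, a decapping scaffold, had a ratio of 0.76 (0.52 to 1.03) there and -0.33 in the control. Among 67 numbered zinc finger genes 5 were called higher at 3 h, a share near the 7.3% of all genes, and median-of-ratios factors left 1 higher and 1 lower. Their median at 3 h was 0.29, against -0.01 at 6 h and -0.07 in the control; at the 5% limit the medians were -0.11, -0.15 and -0.14. The 6 nuclear-retained lncRNAs had 0.19 at 3 h, -0.18 at 6 h and -0.32 in the control, and -0.40, -0.54 and -0.53 at the 5% limit. Malat1 had ratios of 0.07, -0.23 and -0.39 and, at that limit, -0.45, -0.60 and -0.56. Median-of-ratios factors gave the lncRNA list -0.02 at 3 h and turned the sign of 11 list medians there, 6 in the control and 0 at 6 h.

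A last set of genes set the 3 h quartiles beside the 6 h library. The 70 genes at least 2-fold higher in the 6 h than in the 3 h middle quartiles had a 3 h ratio of 0.34, with 58 of 70 above 0, but 0.03 at a limit of 10% and -0.11 at 5%. In the control the 70 genes had -0.003. The 8 genes lower at 6 h than at 3 h had 0.44 at 3 h, 0.11 at 6 h and 0.14 in the control. At the 5% limit their 3 h median was 0.19. All genes had a 3 h median of 0.16. With median-of-ratios factors the 70 and the 8 genes stood at 0.14 and 0.24 at 3 h, beside -0.04 for all genes. Both sets share the 3 h library with the ratio they are read in.

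Long genes took the opposite side at 3 h and in the control. The span of a gene, from its first to its last base in GENCODE M21 on GRCm38, was found for 5945 of 5946 genes. Across these genes, which are not independent replicates, the Spearman correlation of span with the ratio of RNA-poor to RNA-rich was 0.58 at 3 h, -0.07 at 6 h and -0.44 in the control. In the quintile of genes with the longest span, from 77.7 kb, the median ratio was 0.37 at 3 h, -0.04 at 6 h and -0.13 in the control. In the quintile with the shortest, up to 9 kb, it was -0.16, 0.00 and 0.06. At the 5% limit the correlations were -0.22, -0.51 and -0.58, and the longest quintile stood at -0.14, -0.27 and -0.22. Span and transcript length run together, and transcript length gave 0.58, -0.05 and -0.39 in all cells. Ratios for span were added after seeing the data.

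**Figure D5:**
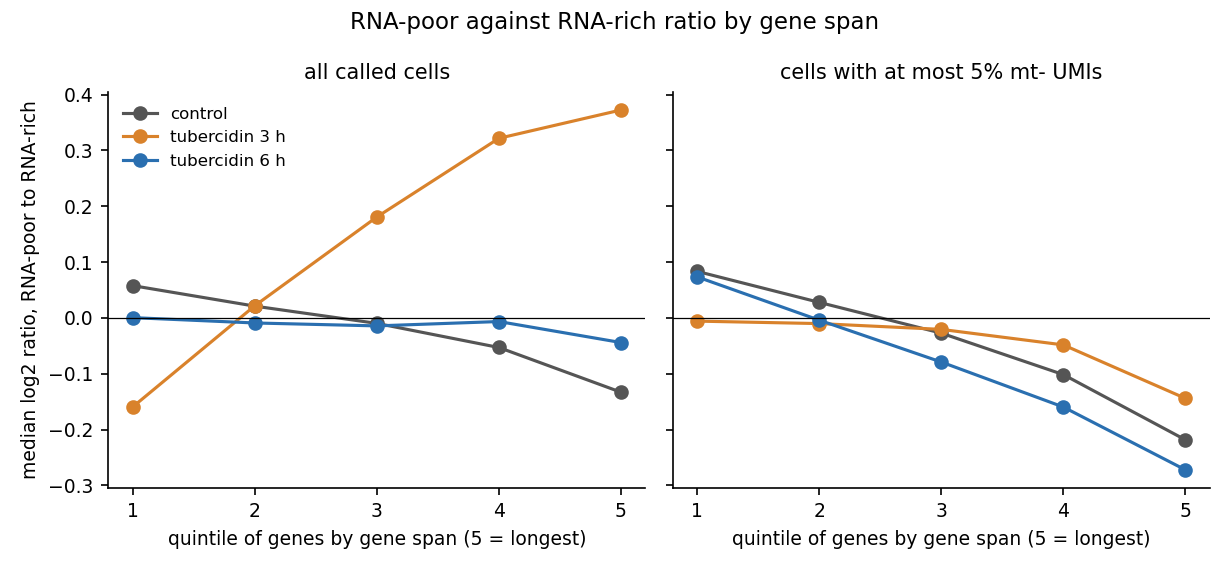
Median log2 ratio of CPM + 1, RNA-poor to RNA-rich (y axis), of genes in quintiles by gene span (x axis, 5 = longest, 1189 genes each), in the control, 3 h and 6 h libraries, 1 library each. In all called cells the 3 h line climbs from -0.16 to 0.37 while the control line goes from 0.06 to -0.13; in cells with at most 5% mitochondrial UMIs all 3 lines end below 0.

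Treated and control cells were last compared in the same UMI range, from 11061 to 40442 UMIs, the span of the control lowest quartile. It held 1366 cells at 3 h, 533 at 6 h and 507 in the control, with medians of 14663, 13187 and 34796 UMIs, so that it narrowed the gap in UMIs but did not close it. The higher and lower genes of the 3 h profile had median treated to control ratios of 1.08 and -1.07 in this range, and those of the 6 h profile 1.21 and -1.12. All genes stood there at -0.26 at 3 h and -0.05 at 6 h. Of the 343 lower genes of 3 h 229 were still at least 2-fold lower, and of the 49 higher genes 32 were still at least 2-fold higher. At 6 h the corresponding numbers were 155 of 232 and 76 of 107. At the 5% limit the numbers were 201 of 343 and 35 of 49 at 3 h, and 152 of 232 and 84 of 107 at 6 h. At 3 h the range took in the whole middle quartile from 11877 to 15350 UMIs, which held 592 of the 1366 cells. It also took in the upper part of the middle quartile that ended at 11876 UMIs. The 3 h numbers were thus read in large part in cells that had defined the profile. At 6 h the middle quartiles ended at 10144 UMIs, below the range, so that none of the 533 cells had defined it.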

How the data were processed

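The authors deposited unfiltered UMI counts for every gene in every barcode. Cell Ranger 7.1.0 made them, per the file headers, and the build is mm10, per the submitters' processing notes; whether intronic reads were counted is not given in the sources used here. A barcode counted as a cell from 2961 UMIs (3 h), 2107 UMIs (6 h) or 11033 UMIs (control), which is 10% of the 99th percentile of the top 3000 barcodes, given 500 genes or more and no more than 20% mitochondrial UMIs. This mitochondrial limit removed 7, 1 and 0 barcodes. Doublets were kept, and leaving out cells above 2 times the median was an alternative. Cells were not clustered.

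For each quartile the counts of its cells were added up per gene and scaled to CPM. Ratios are log2 of CPM + 1, for genes averaging 20 CPM or more. The pseudocount understates the ratio of low genes. Intervals are exact conditional binomial intervals of the ratio without pseudocount, and shares have Clopper-Pearson intervals. No test was run with 1 library per condition. Genes named were the 6 highest and 6 lowest called genes of each treated library and of each profile, 4 of the control and of the differences from it, the extremes of each list and 10 set genes; 1 gene that this rule selects is not reported here. The members, the lists and the rules were chosen with earlier results of these data known. Of 22 planned and 2 added alternatives all were run, and the statistics were tested on simulated data. Gene spans came from GENCODE M21. The software was Python 3.11.15 with scipy 1.17.1, pandas 2.3.3, numpy 2.4.6 and matplotlib 3.10.9.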

Additional observations from a re-analysis of the deposited data

Results flagged for a closer look

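With 1 library per condition, each difference between libraries below is a pair of values and was not tested. The median ratio of RNA-poor to RNA-rich cells over 6 nuclear-retained lncRNAs was 0.19 at 3 h, -0.18 at 6 h and -0.32 in the control, opposite signs at the 2 times. The 16 replication-dependent histones had a control median of 0.13, and -0.17 at 3 h and -0.25 at 6 h. The 3 genes tested of the primed or formative list had 0.14 and 0.15 against -0.15. At most 5% mitochondrial UMIs brought this list to -0.35 at 3 h, 0.01 at 6 h and -0.17 in the control. With median-of-ratios factors its 3 h median was -0.06. The 70 genes higher at 6 h than at 3 h had 0.34 in the 3 h library and -0.12 in the 6 h library. At most 5% mitochondrial UMIs brought the lncRNAs to -0.40, -0.54 and -0.53 and the 70 genes to -0.11 at 3 h and -0.24 at 6 h, while the histones kept their order, at -0.02, -0.16 and 0.17.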

How the results depend on the processing

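Of 230 recomputed gene counts and profile medians, 130 stayed within 1.5 times the count or within a binomial interval of the median, 96 moved and 4 reversed. That interval reflects the spread between the genes of a set, which are not independent replicates. Of 528 recomputed ratios of the 24 called genes named at 3 h and 6 h, 460 stayed called, 67 kept their direction under 1.5-fold, and Camk1d at 3 h reversed, to -0.08, with free RNA subtracted at 2 times its amount. Gene counts are given as higher and lower in RNA-poor cells, and profile medians are those of the library that defined the genes. No paired analysis was possible because each condition is 1 library, and no replicate could be left out.

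The 3 h counts moved with the limit on mitochondrial UMIs and with the UMI minimum. At most 10% mitochondrial UMIs gave 44 higher genes at 3 h, 9 and 35 at 6 h and 76 lower in the control, with lower-gene medians of 0.04 and -0.05 at 3 h and 6 h. At most 5% gave 12 and 64 (3 h), 9 and 173 (6 h) and 103 lower in the control; the lower-gene medians were -0.13 and -0.09 and the 6 h higher-gene median -0.13. A doubled UMI minimum gave 13 and 31 (3 h), 6 and 96 (6 h), 7 and 84 in the control, and medians of -0.09, -0.08 and -0.09. Both together, chosen after seeing the data, gave 12 and 96, 8 and 163, 7 and 99, and medians of -0.16, -0.08 and -0.09. The ribosomal protein median at 3 h reversed under the last 3, to 0.04, 0.02 and 0.06. A halved minimum gave 1755 and 113 genes at 3 h, with 125 and 24 at 6 h, with lower-gene medians of 0.50 and 0.05 and a 6 h higher-gene median of 0.13.

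Deciles gave 2715 and 797 (3 h), 374 and 130 (6 h), 27 and 25 in the control, lower-gene medians of 0.78 and 0.06 and a 6 h higher-gene median of 0.13. Tertiles gave 94 and 6 at 3 h, 3 higher at 6 h and a 3 h lower-gene median of 0.15. Ranking by detected genes gave 56 and 9 (3 h), 4 and 271 (6 h), 5 and 187 in the control, 3 h medians of 0.02 for higher and 0.04 for lower genes, and 6 h medians of -0.15 and -0.19. Ranking without mitochondrial and ribosomal protein UMIs gave 287 higher at 3 h, 10 and 43 at 6 h and a 6 h lower-gene median of -0.08. Ranking within tertiles by G2/M share gave 11 lower in the control.

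With median-of-ratios factors the 3 h counts were 69 and 164, with medians of -0.04 for higher and 0.05 for lower genes. Equal weight per cell gave 1245 and 54 at 3 h, 33 higher at 6 h, a 3 h lower-gene median of 0.40 and a 6 h higher-gene median of 0.06. CPM without mitochondrial and ribosomal protein genes gave 27 lower at 3 h, and free RNA subtracted at 2 times its amount 28 lower at 3 h and 21 at 6 h. A mean of at least 10 CPM gave 727 and 43 (3 h), 63 and 59 (6 h) and 21 higher in the control. At least 50 CPM gave 151 and 6, 5 and 2, 2 and 26, and a 3 h higher-gene median of 0.04. At least 1 CPM gave 1763 and 296, 586 and 569, 129 and 246, and higher-gene medians of 0.42 at 3 h and 0.08 at 6 h; few UMIs stand behind genes at that level. Per doubling of UMIs, as in the control, the 3 h lower-gene median was 0.17.

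The 6 h ribosomal protein median of -0.01 turned above 0 at 0.01 in tertiles, 0.06 ranked without mitochondrial and ribosomal protein UMIs, 0.16 ranked by genes, 0.03 and 0.10 at the 10% and 5% limits, 0.07 with the doubled minimum, 0.08 with both and 0.00 in CPM without these genes. The 6 h S-phase median was -0.02 ranked by genes. The cause of these shifts was not tested.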

Other observations

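Gm42418 and AY036118, annotated genes that overlap ribosomal RNA sequence, were higher in the RNA-poor cells of all 3 libraries, and were named after their values were seen. Gm42418 stood at 7024, 3494, 3233 and 3225 CPM from the lowest to the highest quartile at 3 h, at 5816, 4340, 4020 and 3664 CPM at 6 h and at 3222, 2238, 2178 and 1919 CPM in the control, so that its first quartile was the highest in each. Its ratio was 1.12 at 3 h, 0.67 at 6 h and 0.75 in the control, and 0.28, 0.37 and 0.42 at most 5% mitochondrial UMIs. AY036118 had 1.51, 0.75 and 0.76, and 0.39, 0.23 and 0.41 at that limit. Both were also abundant in free RNA, Gm42418 at 32231, 130755 and 150149 CPM, and their part in the ratio was not tested.

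Barcodes below the cell minimum, down to 0.5 of it, entered no comparison in the report except the alternative with a halved minimum. Those that passed the limits on genes and mitochondrial UMIs numbered 188 at 3 h, 323 at 6 h and 80 in the control. Over 10% mitochondrial UMIs were found in 57.4% of them at 3 h (50.04% to 64.6%), 39.9% at 6 h (34.6% to 45.5%) and 52.5% in the control (41.0% to 63.8%). Ribosomal protein mRNAs made up 12.6%, 17.2% and 16.2% of their UMIs. The interval of the 3 h share overlaps that of the control and lies above that of 6 h.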
